A study of Mus musculus with 6 samples.

Results

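The genes described here are 42 mouse genes of the cytosolic aminoacyl-tRNA synthetases and of the Atf4-centred amino acid response, taken by name from the 22098 gene symbols of the series. They comprise 20 genes of the cytosolic synthetases, 7 genes of the Atf4 pathway (Atf4, Atf5, Ddit3, Ddit4, Trib3, Chac1, Sesn2), 7 of serine and glycine metabolism (Phgdh, Psat1, Psph, Shmt1, Shmt2, Mthfd2, Gldc), 4 of asparagine, proline and phosphoenolpyruvate synthesis (Asns, Aldh18a1, Pycr1, Pck2) and 4 amino acid transporters (Slc7a5, Slc3a2, Slc1a5, Slc7a11). Polyadenylated RNA was sequenced from pro-B acute lymphoblastic leukaemia cells grown in culture. The cells came from whole bone marrow of C57BL/6 mice, infected outside the animal at day 0 with a retrovirus carrying BCR-ABL-p185-IRES-YFP, which joins the BCR-ABL p185 oncogene to a yellow fluorescent reporter, and all libraries share that transformation. The genotypes were wild type, Ikaros ZnF1-/- and Ikaros ZnF4-/-. Ikaros is a zinc finger transcription factor that restrains B-lineage leukaemia, and the mutants lack the first or the fourth finger of its DNA-binding domain. Each of the 3 genotypes gave 1 library at day 21 and 1 at day 28 of culture, 6 libraries in all. The age of the mice, the number of mice per culture and whether separate cultures gave the 2 libraries of a genotype are not given in the labels, so every p-value below measures only how well a difference repeated over the 2 days.

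Aminoacyl-tRNA synthetases attach each amino acid to its tRNA, the step that precedes translation. When uncharged tRNA accumulates or protein folding in the endoplasmic reticulum is disturbed, kinases phosphorylate the initiation factor eIF2, general translation slows, and translation of the mRNA of Atf4 increases. Atf4, a bZIP transcription factor, then binds composite elements shared with C/EBP proteins and raises genes of amino acid uptake, amino acid synthesis and tRNA charging. Because Atf4 is controlled largely at translation, its mRNA level is only one of the layers of its activity, and protein was not measured here.

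Promoter sequence was searched for the core of the C/EBP-ATF response element, TGATGNAA, on both strands of RefSeq windows that run from 250 bases before to 50 bases after each annotated start (build GRCm38.p6). Windows were at hand for 33 of the 42 genes. The core lay in 11 of the 33 (33.3%): Aars, Gars, Iars, Tars, Yars, Asns, Chac1, Trib3, Pck2, Pycr1 and Slc7a11. Among all 27025 genes with a window, 4.51% held it. A 30-base stretch of each expressed gene is printed below with the core in capitals, because these are the members whose sequence and level can be read side by side. Aars held a further match 112 bases before its start, which is not printed. Each is written 5′ to 3′ on the strand that reads TGATGNAA. The distance from the start is that of the first base of the match along the strand of the gene. Where the printed strand is opposite to the gene, that position is the last base of the printed core. Stretches before the start lie upstream of the annotated transcript and those after it lie in its first bases.
Asns, chr6:7693214-7693243, minus strand, 23 bases before the start: tcccagccacaTGATGAAActtcccgcacg
Chac1, chr2:119351038-119351067, minus strand, 193 bases before the start: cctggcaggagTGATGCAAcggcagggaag
Trib3, chr2:152344028-152344057, plus strand, 15 bases after the start: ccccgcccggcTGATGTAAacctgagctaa
Pck2, chr14:55540152-55540181, minus strand, 103 bases before the start: ctgtaagatacTGATGTAActttgaaggct
Pycr1, chr11:120643833-120643862, minus strand, 103 bases before the start: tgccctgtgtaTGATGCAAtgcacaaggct
Aars, chr8:111033840-111033869, minus strand, 10 bases after the start: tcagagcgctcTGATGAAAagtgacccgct
Gars, chr6:55037960-55037989, minus strand, 30 bases before the start: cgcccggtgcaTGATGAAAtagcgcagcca
Iars, chr13:49682126-49682155, minus strand, 8 bases after the start: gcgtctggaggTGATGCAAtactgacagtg
Tars, chr15:11399655-11399684, plus strand, 15 bases before the start: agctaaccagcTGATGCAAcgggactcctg
Yars, chr4:129189895-129189924, plus strand, 4 bases after the start: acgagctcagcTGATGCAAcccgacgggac
In the 250 bases before the start of Asns and of Chac1, shown because these genes had some of the widest differences between the mutants, the core is again in capitals (for Chac1 it is read on the opposite strand).
Asns upstream window, chr6:7693210-7693459, minus strand: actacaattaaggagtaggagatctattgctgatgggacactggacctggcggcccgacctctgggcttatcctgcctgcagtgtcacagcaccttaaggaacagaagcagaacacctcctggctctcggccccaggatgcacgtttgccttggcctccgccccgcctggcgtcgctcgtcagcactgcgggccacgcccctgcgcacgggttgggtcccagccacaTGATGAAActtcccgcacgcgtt
Chac1 upstream window, chr2:119350992-119351241, plus strand: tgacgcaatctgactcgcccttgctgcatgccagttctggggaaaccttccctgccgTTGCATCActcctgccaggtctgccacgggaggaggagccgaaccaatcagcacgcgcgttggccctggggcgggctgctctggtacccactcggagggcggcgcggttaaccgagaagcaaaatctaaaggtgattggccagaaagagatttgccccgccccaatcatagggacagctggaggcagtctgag
A match describes these letters only. The core TGGGAA, which Ikaros recognises, lay in 10 of the 33 windows (30.3%), against 28.3% of all genes with a window.

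Levels are RPKM, which divides the reads of a gene by its transcript length and by the library's mapped reads, so levels can be compared between genes. Pairs of values below are day 21 followed by day 28. A gene was tested when it reached 1 RPKM in at least 2 of the 6 libraries, which held for 11379 symbols and for 41 of the 42 genes. Slc7a11, the cystine carrier, was not tested, at 0.1 and 0.1 RPKM in wild type, 0.2 and 0.4 RPKM in the ZnF1 mutant and 0 and 0.4 RPKM in the ZnF4 mutant. Differences were taken between log2(RPKM + 1) values and carry a standard error (SE) from a limma model of genotype and day over the 6 libraries. A gene was called when its limma p, adjusted over all tested genes by Benjamini-Hochberg, was below 0.05. Pycr1 met this filter only with the ZnF4 libraries, so its ZnF4 values, and the counts that hold it, are partly set by the filter. The other 40 tested members met it with the libraries of either mutant set aside in turn. The Ikaros gene itself, Ikzf1, was present in all libraries, at 89.2 and 78.7 RPKM in wild type, 108 and 91.4 RPKM in the ZnF1 mutant and 186 and 165.9 RPKM in the ZnF4 mutant. A value over the whole transcript does not show whether a finger is missing, so the genotype labels were not checked by it. Between 10401 and 11233 symbols reached 1 RPKM per library, and summed RPKM of 10 B-lineage markers lay between 3494 and 3836.2 in all 6 libraries. That sum does not show differences of single markers such as Rag1, given below.

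The ZnF1 and ZnF4 mutants stood on opposite sides of wild type across this gene set. In the ZnF1 mutant 28 of the 41 tested genes were called lower than wild type and 0 were called higher, where 15.2% of all tested genes were called lower and 22.9% higher. Their median difference was -0.39 against -0.02 over all tested genes. In the ZnF4 mutant 27 were called higher than wild type and 1, Gldc, was called lower, where 10.9% of all tested genes were called higher and 7.32% lower. The median was 0.48, against 0.02 over all tested genes. Without Pycr1 the count was 26 of 40 and the median 0.47. Set against the ZnF1 mutant directly, the ZnF4 mutant had 35 genes called higher and 1 called lower (Gldc), against 22.3% and 23.2% of all tested genes, with a median of 0.82 against 0.03. The comparisons of the mutants with wild type share the wild type libraries, so they are not independent of each other. The members were chosen with earlier results of these data known. Their contrast with all tested genes, here and below, can therefore in part follow from that choice.

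The same ordering can be read from the libraries without a test. On both days 27 of the 41 genes stood in the order ZnF4 mutant, wild type, ZnF1 mutant from high to low, an order that 14% of all tested genes showed. Both ZnF1 libraries lay below both wild type libraries for 29 genes (33.4% of all tested genes), and both ZnF4 libraries lay above both wild type libraries for 32 (30.9%). Both ZnF4 libraries lay above both ZnF1 libraries for 37 genes (37%). Within single days, 34 genes were lower in the ZnF1 mutant than in wild type on day 21 and on day 28, and 33 were higher in the ZnF4 mutant on both.

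**Figure D1:**
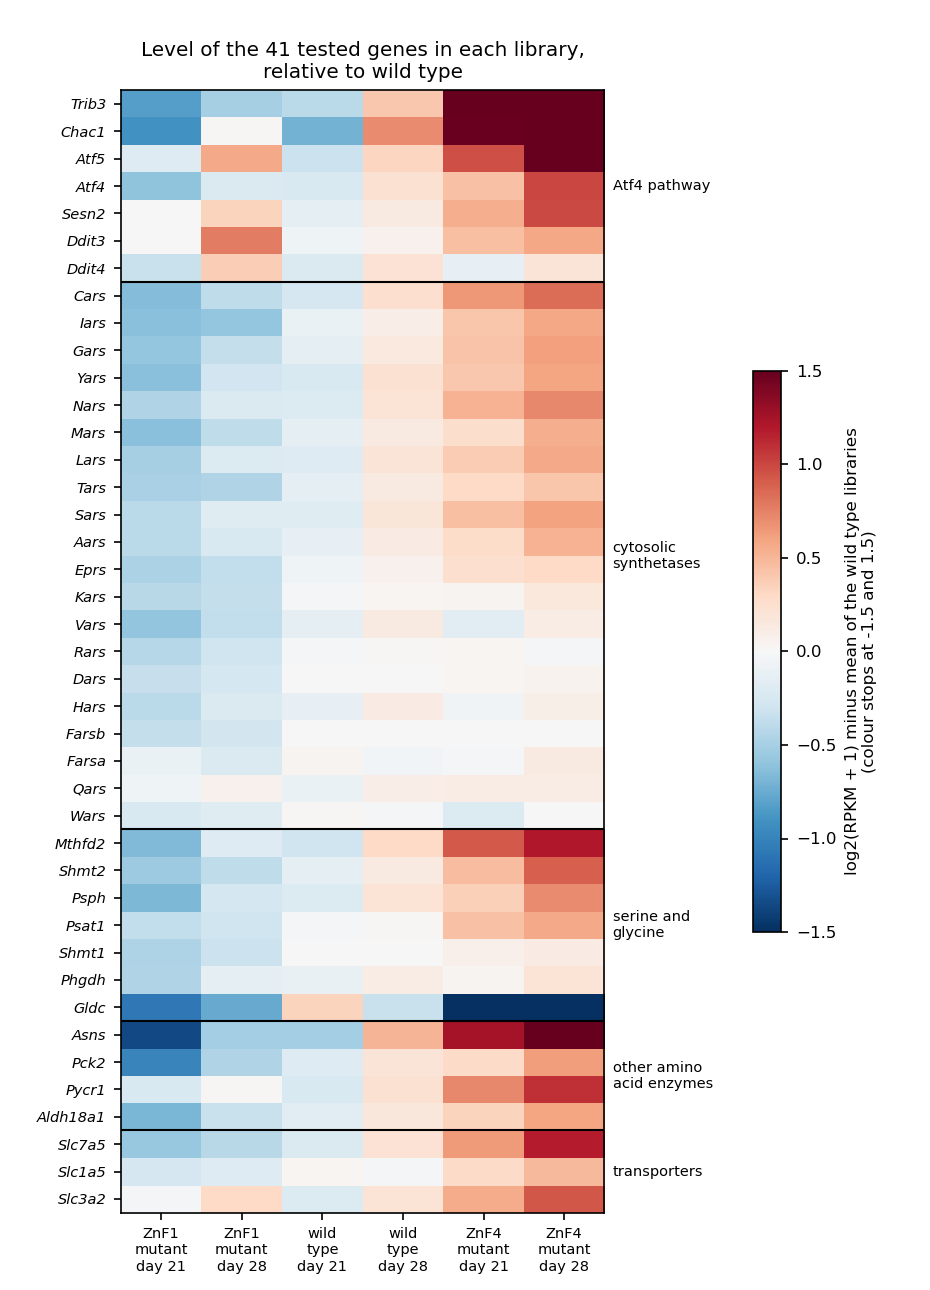
Heat map of the 41 tested genes (rows, grouped by role and ordered within a role by the difference between the mutants) in the 6 libraries (columns). Colour is log2(RPKM + 1) minus the mean of the wild type libraries, blue below and red above, with the scale stopped at -1.5 and 1.5. Most rows run from blue in the ZnF1 mutant to red in the ZnF4 mutant, while Gldc is bluest in the ZnF4 mutant and rows such as Qars and Wars stay pale.

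The counts of calls rest on few libraries. Leaving out 1 library leaves 1 residual degree of freedom, and the 28 calls in the ZnF1 mutant became 5 without the day 21 wild type library, 1 without its day 28 counterpart, 4 without the day 21 ZnF1 library and 3 without its day 28 counterpart. The share of all tested genes called lower fell in the same fits to between 1.16% and 2.68%. The 27 calls in the ZnF4 mutant became 3 without the day 21 wild type library, 4 without its day 28 counterpart, 7 without the day 21 ZnF4 library and 4 without its day 28 counterpart. They became 20 without either ZnF1 library. Between the mutants 26 to 34 were called higher. In the fits without 1 library, the share of all tested genes called higher fell as well in both comparisons of the ZnF4 mutant. The member median in those fits was 0.42 to 0.51 for the ZnF4 mutant against wild type, and 0.002 to 0.03 over all tested genes. Between the mutants it was 0.75 to 0.84, and 0.01 to 0.06 over all tested genes. Without day as a term, the model called 9 genes lower in the ZnF1 mutant, 6 higher in the ZnF4 mutant and 29 higher between the mutants. The shares of all tested genes called in the same directions were then 10.9%, 8.79% and 18.9%. No called gene changed direction in any of the 15 alternative fits.

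Atf4 mRNA, which encodes the factor at the centre of the response, measured 169.2 and 234.5 RPKM in wild type, 131.2 and 171.4 RPKM in the ZnF1 mutant and 271.5 and 399.9 RPKM in the ZnF4 mutant. It was lower in the ZnF1 mutant than in wild type, with a difference of -0.41 ± 0.08 (SE, adjusted p = 0.0167), and higher in the ZnF4 mutant, by 0.72 ± 0.08 (SE, adjusted p = 0.00557). The ZnF4 libraries lay above all others, while wild type at day 21 lay just under the ZnF1 mutant at day 28. Between the mutants the difference was 1.13 ± 0.08 (SE, adjusted p = 0.000653). Atf5, a related bZIP factor whose mRNA is also translated under eIF2 phosphorylation, was called in the ZnF4 mutant alone. It measured 7.8 and 12.8 RPKM in wild type, 8.6 and 15.3 RPKM in the ZnF1 mutant and 20.6 and 33.8 RPKM in the ZnF4 mutant. Atf5 was higher in the ZnF4 mutant than in wild type, by 1.31 ± 0.07 (SE, adjusted p = 0.00103), whereas the ZnF1 mutant differed from wild type by 0.18 ± 0.07 (SE, adjusted p = 0.109) and was not called.

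Trib3 and Chac1, stress genes that lie downstream of Atf4, had the widest differences between the mutants among the 7 genes of the Atf4 pathway. Trib3, a pseudokinase that feeds back on the response, measured 5.4 and 10.3 RPKM in wild type, 3.8 and 5 RPKM in the ZnF1 mutant and 24.3 and 30.8 RPKM in the ZnF4 mutant. Its difference from wild type was -0.66 ± 0.15 (SE, adjusted p = 0.0211) in ZnF1-/- cells and 1.74 ± 0.15 (SE, adjusted p = 0.00233) in ZnF4-/- cells, and the groups did not overlap. Chac1, which degrades glutathione, measured 1.3 and 5.1 RPKM in wild type, 1 and 2.8 RPKM in the ZnF1 mutant and 9.5 and 16 RPKM in the ZnF4 mutant. Both ZnF4 values lay above all others, and wild type and the ZnF1 mutant overlapped. Chac1 differed by 1.83 ± 0.18 (SE, adjusted p = 0.00363) in the ZnF4 mutant and by -0.44 ± 0.18 (SE, adjusted p = 0.111), not called, in the ZnF1 mutant, where quantile scaling called it lower, at -0.88 (adjusted p = 0.013). Sesn2, an inhibitor of mTORC1 signalling, measured 3.5 and 4.4 RPKM in wild type, 3.9 and 5.2 RPKM in the ZnF1 mutant and 6.2 and 8.8 RPKM in the ZnF4 mutant. It was called higher in the ZnF4 mutant, by 0.77 ± 0.09 (SE, adjusted p = 0.00639).

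Ddit3 and Ddit4 were not called between genotypes in the model of all 6 libraries. Ddit3, which encodes the pro-apoptotic factor CHOP, measured 14.3 and 15.6 RPKM in wild type, 15 and 26.1 RPKM in the ZnF1 mutant and 20.7 and 22.8 RPKM in the ZnF4 mutant. The highest value was that of the ZnF1 mutant at day 28, and neither mutant was called against wild type (ZnF1 mutant 0.39 ± 0.17 (SE, adjusted p = 0.138), ZnF4 mutant 0.51 ± 0.17 (SE, adjusted p = 0.111)). Ddit3 was called higher in the ZnF4 mutant with only wild type and ZnF4 libraries in the model (adjusted p = 0.0407) and without the day 21 or day 28 ZnF1 sample (0.0407 and 0.0417). Without the day 21 ZnF1 sample it was also called higher in the ZnF1 mutant, at 0.70 (adjusted p = 0.0303). Ddit4, an mTORC1 inhibitor also known as Redd1, measured 21 and 28.7 RPKM in wild type, 19.2 and 31.9 RPKM in the ZnF1 mutant and 22.5 and 28.2 RPKM in the ZnF4 mutant. All 3 genotypes overlapped for Ddit4, with differences from wild type of 0.01 ± 0.11 and 0.04 ± 0.11. Of the 7 genes of the Atf4 pathway, 2 were called lower in the ZnF1 mutant (Atf4, Trib3) and 5 higher in the ZnF4 mutant (Atf4, Atf5, Trib3, Chac1, Sesn2).

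Among the calls in these genes, Atf5 in the ZnF4 mutant was called whichever library was left out, though not without day as a term (adjusted p = 0.0672). Atf4 in the ZnF1 mutant lost its call on removal of any 1 of the 4 libraries compared (adjusted p up to 0.164), and Trib3 on removal of any library other than day 21 wild type (up to 0.156). Without the day 28 wild type library the Trib3 difference in the ZnF1 mutant was -0.42 (adjusted p = 0.116). In the ZnF4 mutant, Atf4 lost its call without either wild type library or the day 28 ZnF4 library (up to 0.106), Trib3 and Chac1 without either ZnF4 library (up to 0.0575 and 0.0593), and Sesn2 without any 1 of the 4 libraries compared (up to 0.0919). Without day as a term, Atf4 was called in neither mutant against wild type (adjusted p = 0.268 and 0.124), and Trib3 in the ZnF4 mutant was called. Under quantile scaling, which forces the libraries to the same distribution, Atf4 in the ZnF1 mutant was not called either.

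**Figure D2:**
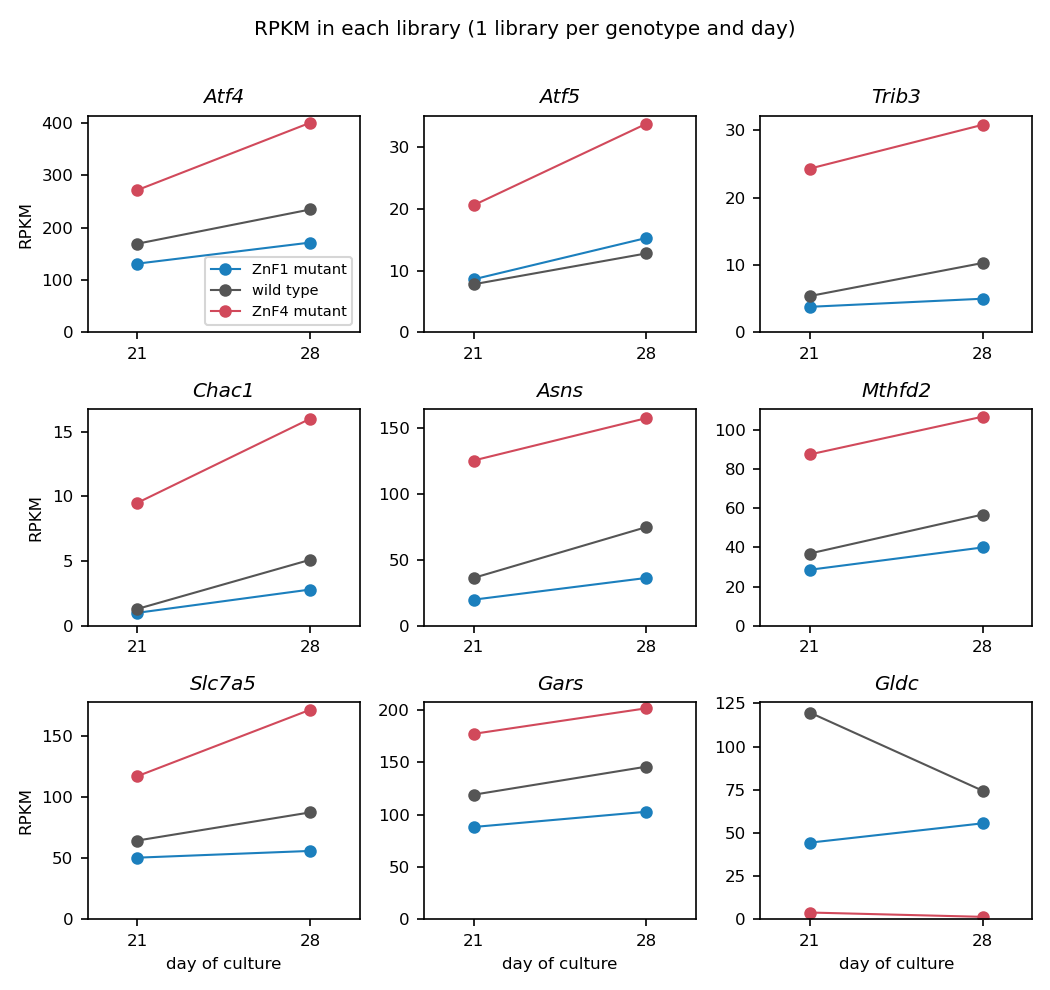
RPKM of 9 genes (vertical axis, from 0) at day 21 and day 28 (horizontal axis), 1 point per library, lines joining the libraries of a genotype. The ZnF4 mutant (red) lies above wild type (grey) and the ZnF1 mutant (blue) on both days in every panel but that of Gldc, where it measured 3.8 and 1.3 RPKM.

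The cytosolic synthetases were nearly all lower in the ZnF1 mutant, while only some were higher in the ZnF4 mutant. Against wild type 17 of the 20 genes were called lower in the ZnF1 mutant, with a median difference of -0.36, and Qars, Wars and Farsa were not called. The ZnF4 mutant had 11 called higher, with a median over the 20 of 0.32, and 0 were called lower. Between the mutants 17 were called higher in the ZnF4 mutant, with a median of 0.71, and both ZnF4 libraries lay above both ZnF1 libraries for 19, Wars being the exception. The changes were moderate in size: no synthetase differed from wild type by more than -0.60 in the ZnF1 mutant (Iars) or 0.75 in the ZnF4 mutant (Cars).

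The 11 genes called higher in the ZnF4 mutant were Aars, Cars, Eprs, Gars, Iars, Lars, Mars, Nars, Sars, Tars and Yars. All 11 were also called lower in the ZnF1 mutant, with differences of -0.29 to -0.60. For the next genes the values are given for wild type, then the ZnF1 mutant, then the ZnF4 mutant. Cars, which charges cysteine, gave 26.2 and 37.7 RPKM, then 19.6 and 23.9 RPKM, then 50 and 57 RPKM. It had the widest difference between the mutants of any synthetase, 1.26 ± 0.10 (SE, adjusted p = 0.000729). Its difference from wild type was -0.52 ± 0.10 in ZnF1-/- cells and 0.75 ± 0.10 in ZnF4-/- cells. Iars (isoleucine) gave 55.2 and 63.4 RPKM, then 38 and 39.4 RPKM, then 79.2 and 89.1 RPKM, and the 3 genotypes did not overlap. Iars differed from wild type by -0.60 ± 0.07 in ZnF1-/- cells and 0.50 ± 0.07 in ZnF4-/- cells. Gars (glycine), whose start carries the element shown above, gave 119.1 and 146 RPKM, then 88.2 and 102.8 RPKM, then 177.4 and 201.9 RPKM. Both ZnF1 values of Gars lay below wild type and both ZnF4 values above it, with differences of -0.47 ± 0.07 and 0.52 ± 0.07.

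Yars (tyrosine) gave 33 and 45.6 RPKM, then 24.8 and 31.5 RPKM, then 51.8 and 58.9 RPKM. Nars (asparagine) gave 80.1 and 107.5 RPKM, then 67.4 and 80 RPKM, then 133.6 and 153.3 RPKM. The day 21 value of wild type lay close to the day 28 value of the ZnF1 mutant for both. Their differences in the ZnF4 mutant were 0.50 ± 0.09 and 0.62 ± 0.08. Mars (methionine) gave 46.7 and 56.9 RPKM, then 32.9 and 39.2 RPKM, then 62 and 75.9 RPKM. Lars (leucine) gave 29 and 38.4 RPKM, then 23.4 and 28.8 RPKM, then 43.8 and 50.1 RPKM. Tars (threonine) gave 69.5 and 83.9 RPKM, then 54.1 and 55.8 RPKM, then 93.8 and 101.9 RPKM. The genotypes did not overlap for these 3 genes, and the ZnF4 mutant exceeded the ZnF1 mutant by 0.91 ± 0.06, 0.83 ± 0.08 and 0.82 ± 0.08. Sars (serine) gave 42.4 and 55 RPKM, then 36.3 and 42.6 RPKM, then 66.2 and 74.1 RPKM. Aars (alanine) gave 50.5 and 59.7 RPKM, then 41.2 and 46.7 RPKM, then 66.8 and 79.4 RPKM. Eprs, a single protein that charges both glutamate and proline, gave 82.7 and 90.7 RPKM, then 62 and 66.7 RPKM, then 103.7 and 107.1 RPKM. Wild type and the ZnF1 mutant overlapped for Sars by a narrow margin and did not for Aars and Eprs. The ZnF4 mutant exceeded the ZnF1 mutant by 0.82 ± 0.08, 0.72 ± 0.06 and 0.70 ± 0.07, and each of these was called in all 3 comparisons (adjusted p at most 0.0453).

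The other 9 synthetase genes were close to wild type in the ZnF4 mutant, from -0.10 to 0.11. Of these, 6 were called lower in the ZnF1 mutant. Kars (lysine) gave 124.3 and 129.7 RPKM, then 94.9 and 98.9 RPKM, then 130.5 and 141.8 RPKM. Vars (valine) gave 103.6 and 125.6 RPKM, then 75.5 and 88 RPKM, then 101.9 and 123.5 RPKM. Rars (arginine) gave 86.1 and 88.7 RPKM, then 64.5 and 70.6 RPKM, then 89.3 and 86 RPKM. Their ZnF1 differences from wild type were -0.39 ± 0.07, -0.48 ± 0.07 and -0.37 ± 0.08, and in the ZnF4 mutant 0.10 ± 0.07, -0.02 ± 0.07 and 0.00 ± 0.08. Dars (aspartate) gave 62.8 and 62.8 RPKM, then 49.3 and 52.1 RPKM, then 64.1 and 65.1 RPKM. Hars (histidine) gave 54.1 and 63.9 RPKM, then 44.2 and 50.5 RPKM, then 56.8 and 62.3 RPKM. Farsb, one of the phenylalanine subunits, gave 71.9 and 71.5 RPKM, then 55.6 and 59.1 RPKM, then 71.9 and 71.5 RPKM, so that wild type and the ZnF4 mutant are listed at equal values. The ZnF1 differences of these 3 were -0.30 ± 0.07, -0.31 ± 0.07 and -0.32 ± 0.07. Farsa, the partner subunit of Farsb, lay between 39.7 and 50.8 RPKM in all libraries and was called in no comparison (ZnF1 mutant against wild type -0.16 ± 0.09 (SE, adjusted p = 0.205)). Qars (glutamine) lay between 54 and 62.8 RPKM, with a ZnF1 difference of -0.00 ± 0.08. Wars (tryptophan) lay between 45.7 and 54.2 RPKM, with a ZnF1 difference of -0.20 ± 0.08 (SE, adjusted p = 0.109).

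Called genes occurred in every family of these enzymes. Synthetases fall into 2 unrelated structural classes, and 8 of 10 in class I and 9 of 10 in class II were called lower in the ZnF1 mutant, with 6 and 5 called higher in the ZnF4 mutant. Eprs, which charges both glutamate and proline, was counted in class I only. Of the 20 genes, 8 encode enzymes of the cytosolic multi-synthetase complex, of which 7 were called lower in the ZnF1 mutant and 4 higher in the ZnF4 mutant. Outside the complex the counts were 10 and 7 of 12. No test of the difference between these families was made. All 5 synthetases with a TGATGNAA core (Aars, Gars, Iars, Tars, Yars) were among the 11 called higher in the ZnF4 mutant. Eprs, Mars and Sars, with a window and no core, were also among the 11. Dars, Kars, Qars, Farsa and Farsb, likewise with a window and no core, were not. Only 13 of the 20 synthetases had a window to search. Cars, Lars and Nars among the 11, and Hars, Rars, Vars and Wars among the rest, had none. Over all members, the 10 tested genes with the core had a median ZnF4 difference from wild type of 0.51 (10 called higher, 9 of 9 without Pycr1), against 0.43 for the 22 tested genes with a window and no core (12 called higher, 1 lower). In the ZnF1 mutant the medians were -0.47 (8 called lower) and -0.33 (13 called lower).

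These calls were sensitive to single libraries. Leaving out day 28 wild type ended all 17 synthetase calls in the ZnF1 mutant, with adjusted p up to 0.279 (Sars) over the single libraries left out. Iars was called whichever other library was left out. Mars lost its call also without the day 21 wild type library or the day 28 ZnF1 library, Cars without either ZnF1 library, and the other 14 without any 1 of the 4 libraries compared. All 11 calls in the ZnF4 mutant ended on removal of any 1 of the 4 libraries compared (up to 0.331, Eprs), and those of Aars, Eprs, Lars, Mars, Sars, Tars and Yars also without either ZnF1 library. Between the mutants the 11 kept their calls whichever library was left out, and Dars, Hars, Kars, Rars, Vars and Farsb did not (up to 0.138, Farsb). Of those, Kars and Vars lost the call without the day 28 ZnF1 library only, Dars without either ZnF1 library, Hars without any wild type or ZnF1 library, and Rars and Farsb without any of the 6 but the day 28 ZnF4 library. Quantile scaling moved the ZnF1 differences of Dars, Nars and Farsb to -0.20, -0.22 and -0.21, none of them called (adjusted p = 0.0574, 0.104 and 0.0511).

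**Figure D3:**
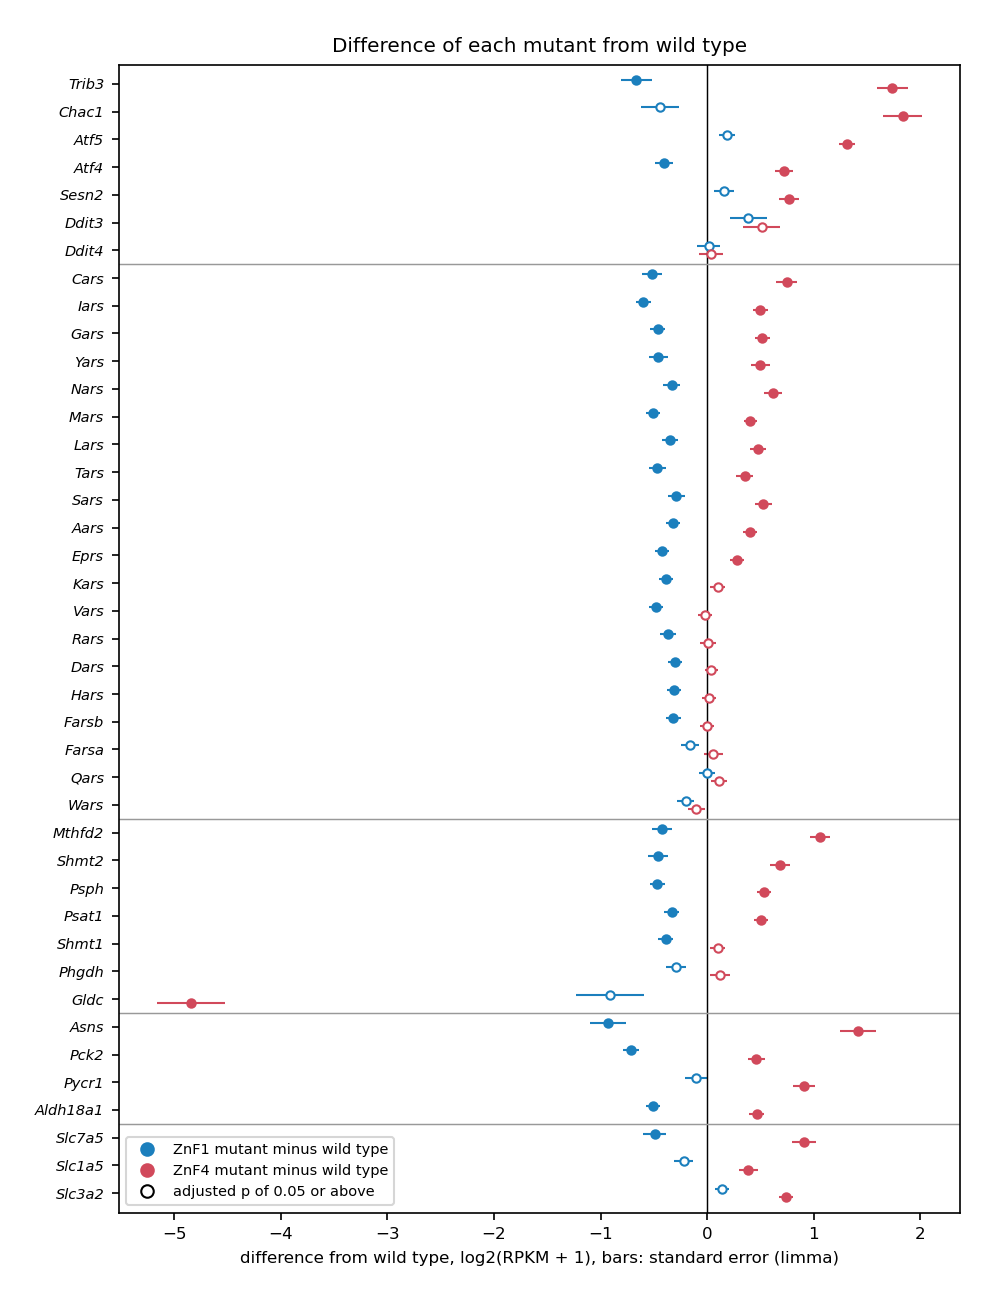
Difference of the ZnF1 mutant (blue) and of the ZnF4 mutant (red) from wild type for the 41 tested genes, log2(RPKM + 1) on the horizontal axis with bars of 1 standard error from limma. Filled points had an adjusted p below 0.05. Kars, Vars, Rars, Dars, Hars and Farsb have a filled blue point left of 0 and an open red point near 0, and Gldc has its red point at -4.84.

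Enzymes that make serine and feed its carbon into the folate pool stood in the same order as Atf4 on each day, and Gldc, which breaks glycine down, was lowest in the ZnF4 mutant. Of the 7 genes, 5 were called lower in the ZnF1 mutant (Psat1, Psph, Shmt1, Shmt2, Mthfd2). The ZnF4 mutant had 4 called higher (Psat1, Psph, Shmt2, Mthfd2) and 1 lower (Gldc). Mthfd2, the mitochondrial methylene-tetrahydrofolate dehydrogenase, measured 36.9 and 56.8 RPKM in wild type, 28.6 and 40 RPKM in the ZnF1 mutant and 87.5 and 106.8 RPKM in the ZnF4 mutant. Its ZnF4 libraries lay above all others, and it differed from wild type by -0.43 ± 0.09 (SE, adjusted p = 0.0219) in ZnF1-/- cells and 1.06 ± 0.09 (SE, adjusted p = 0.00266) in ZnF4-/- cells. Shmt2, the mitochondrial serine hydroxymethyltransferase, measured 128.5 and 153.9 RPKM in wild type, 96.3 and 107.9 RPKM in the ZnF1 mutant and 194.3 and 263.5 RPKM in the ZnF4 mutant, with no overlap between genotypes. It differed by -0.46 ± 0.09 (SE, adjusted p = 0.0159) in ZnF1-/- cells and 0.68 ± 0.09 (SE, adjusted p = 0.00877) in ZnF4-/- cells. Its cytosolic counterpart Shmt1 measured 49.6 and 50.1 RPKM in wild type, 36 and 39.8 RPKM in the ZnF1 mutant and 52.6 and 54.2 RPKM in the ZnF4 mutant. Shmt1 was called lower in the ZnF1 mutant (-0.39 ± 0.07 (SE, adjusted p = 0.0111)) and was not called in the ZnF4 mutant (0.10 ± 0.07 (SE, adjusted p = 0.398)).

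The serine synthesis enzymes were less uniform. Psat1, the aminotransferase of the pathway, measured 93.3 and 96.1 RPKM in wild type, 73.3 and 76.5 RPKM in the ZnF1 mutant and 129.1 and 140.5 RPKM in the ZnF4 mutant. Psph, the phosphatase that releases serine, measured 18.9 and 25.4 RPKM in wild type, 13.4 and 18.1 RPKM in the ZnF1 mutant and 28.3 and 36.5 RPKM in the ZnF4 mutant. Genotypes did not overlap for either gene. Against wild type, Psat1 differed by -0.33 ± 0.07 in ZnF1-/- cells and 0.50 ± 0.07 in ZnF4-/- cells, and Psph by -0.47 ± 0.07 and 0.53 ± 0.07. Phgdh, the first enzyme of the pathway, was the least abundant, at 2.8 and 3.4 RPKM in wild type, 2 and 2.7 RPKM in the ZnF1 mutant and 3.2 and 3.7 RPKM in the ZnF4 mutant. It was called only between the mutants (0.42 ± 0.10 (SE, adjusted p = 0.0193)).

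Gldc, the decarboxylase of the glycine cleavage system, had the largest difference of all 42 genes. It measured 119.7 and 74.4 RPKM in wild type, 44.3 and 55.5 RPKM in the ZnF1 mutant and 3.8 and 1.3 RPKM in the ZnF4 mutant, so that both ZnF4 libraries were far below all others. The difference from wild type was -4.84 ± 0.32 (SE, adjusted p = 0.0013) in the ZnF4 mutant and -0.92 ± 0.32 (SE, adjusted p = 0.0746), not called, in the ZnF1 mutant, although both ZnF1 values lay below both wild type values. Without the day 28 ZnF1 sample the ZnF1 difference was -1.51 and called (adjusted p = 0.0225), and without the day 21 ZnF1 sample it was -0.32 (adjusted p = 0.275). As ratios of mean RPKM, the ZnF4 mutant stood at 0.0263 of wild type and the ZnF1 mutant at 0.514. The call in the ZnF4 mutant was made in every alternative fit. No other gene of the glycine cleavage system was called lower in the ZnF4 mutant. Amt, its aminomethyltransferase, was low, at 0.9 and 0.9 RPKM in wild type, 1.5 and 1.9 RPKM in the ZnF1 mutant and 2.1 and 1.7 RPKM in the ZnF4 mutant, and was called higher in both mutants (0.50 ± 0.13 (SE, adjusted p = 0.034) and 0.61 ± 0.13 (SE, adjusted p = 0.0342)). It was tested only because the mutants reach 1 RPKM, and both calls were lost on removal of any 1 of the libraries compared. Dld and Gcsh differed from wild type by 0.03 ± 0.10 (SE, adjusted p = 0.881) and -0.13 ± 0.11 (SE, adjusted p = 0.467) in the ZnF4 mutant, neither called.

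In the serine and glycine genes the ZnF1 calls of Psat1, Psph, Shmt1, Shmt2 and Mthfd2 were each lost without any 1 of the 4 libraries compared (adjusted p up to 0.19, Mthfd2), and the ZnF1 difference of Psat1 became -0.20 under quantile scaling (adjusted p = 0.0605). In the ZnF4 mutant, Mthfd2 lost its call without the day 21 wild type library (adjusted p = 0.051), Psat1 and Shmt2 without either wild type library or the day 28 ZnF4 library (up to 0.13 and 0.126), and Psph without any 1 of the 4 libraries (up to 0.112). Between the mutants, Shmt1 lost its call without the day 21 ZnF1 library (adjusted p = 0.0577) and Phgdh without any 1 of the 6 (up to 0.129), while quantile scaling gave Phgdh a difference of 0.73 (adjusted p = 0.00252) and called it lower in the ZnF1 mutant (-0.69, adjusted p = 0.00481).

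Asns, asparagine synthetase and a classic target of Atf4, spanned the widest range among the enzymes of this group. It measured 36.3 and 74.9 RPKM in wild type, 19.8 and 36.3 RPKM in the ZnF1 mutant and 125.4 and 157.6 RPKM in the ZnF4 mutant. The ZnF4 libraries lay above all others, and wild type at day 21 equalled the ZnF1 mutant at day 28. Asns differed from wild type by -0.93 ± 0.17 (SE, adjusted p = 0.012) in ZnF1-/- cells and 1.41 ± 0.17 (SE, adjusted p = 0.00622) in ZnF4-/- cells, and between the mutants by 2.35 ± 0.17 (SE, adjusted p = 0.000643), a ratio of mean RPKM of 5.04. Pck2, which makes phosphoenolpyruvate in mitochondria, measured 51.4 and 67.9 RPKM in wild type, 29.3 and 43.1 RPKM in the ZnF1 mutant and 72.6 and 92 RPKM in the ZnF4 mutant, without overlap between genotypes. Its ZnF1 difference of -0.72 ± 0.08 (SE, adjusted p = 0.00241) was the only ZnF1 call among the 28 that was made whichever library was left out, and its ZnF4 difference was 0.46 ± 0.08 (SE, adjusted p = 0.017).

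The proline enzymes were measured at very different levels. Aldh18a1, which starts proline synthesis, measured 50.1 and 63.9 RPKM in wild type, 34.9 and 44.7 RPKM in the ZnF1 mutant and 71.6 and 85.8 RPKM in the ZnF4 mutant, again without overlap. Its differences from wild type were -0.51 ± 0.07 (SE, adjusted p = 0.00425) and 0.46 ± 0.07 (SE, adjusted p = 0.0106). Pycr1, which ends the pathway, was near the floor outside the ZnF4 mutant, at 0.6 and 1.2 RPKM in wild type, 0.6 and 0.9 RPKM in the ZnF1 mutant and 2.1 and 3 RPKM in the ZnF4 mutant. It was tested only through its ZnF4 values, so its ZnF4 difference is a description, 0.91 ± 0.11 (SE) and 1.45 with a pseudocount of 0.1. In the ZnF1 mutant Pycr1 was not called, except under quantile scaling, where limma called it lower (adjusted p = 0.0255). Of the other 3 enzymes, 3 were called lower in the ZnF1 mutant and 3 higher in the ZnF4 mutant. Asns lost its ZnF1 call without the day 28 wild type library or either ZnF1 library (up to 0.126) and its ZnF4 call without either wild type library (up to 0.0835). Aldh18a1 in both comparisons and Pck2 in the ZnF4 mutant lost theirs without any 1 of the 4 libraries compared (up to 0.176, Pck2). Without day as a term, Asns, Pck2 and Aldh18a1 were called in neither mutant against wild type (adjusted p from 0.0615 to 0.26).

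The large neutral amino acid transporter LAT1 is a pair of Slc7a5, the light chain that carries the substrate, and Slc3a2, the heavy chain. Slc7a5 measured 64.2 and 87.2 RPKM in wild type, 50.2 and 55.7 RPKM in the ZnF1 mutant and 116.8 and 171.1 RPKM in the ZnF4 mutant. It differed by -0.49 ± 0.11 (SE, adjusted p = 0.0224) in ZnF1-/- cells and 0.91 ± 0.11 (SE, adjusted p = 0.00645) in ZnF4-/- cells, and the genotypes did not overlap. Slc3a2 measured 40.4 and 54.4 RPKM in wild type, 46.1 and 57.9 RPKM in the ZnF1 mutant and 69.4 and 90.1 RPKM in the ZnF4 mutant. It was higher in the ZnF4 mutant, by 0.74 ± 0.07 (SE, adjusted p = 0.00266), and was not called in the ZnF1 mutant (0.14 ± 0.07 (SE, adjusted p = 0.159)), where its values overlapped wild type. Slc1a5, a glutamine carrier, measured 146.6 and 141 RPKM in wild type, 120.5 and 126.1 RPKM in the ZnF1 mutant and 175.4 and 201.8 RPKM in the ZnF4 mutant. The ZnF4 difference of Slc1a5 was 0.39 ± 0.09 (SE, adjusted p = 0.0413) and its ZnF1 difference was -0.22 ± 0.09 (SE, adjusted p = 0.108), not called. Slc7a5 lost its ZnF1 call without either wild type library or the day 28 ZnF1 library, the last with a difference of -0.32 (adjusted p = 0.131). In the ZnF4 mutant Slc7a5 lost its call without any 1 of the 4 libraries (up to 0.112), Slc3a2 without either wild type library (up to 0.0651) and Slc1a5 without any 1 of the 6 (up to 0.325).

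The rest of the pathway was read from 9 further lists of genes that are no members. Of the 14 tested genes on the list of other Atf4 targets, 4 met the level filter only with the ZnF4 libraries (Vldlr, Stc2, Slc7a3, Slc6a9). Of the other 10, 6 were called higher in the ZnF4 mutant, with a median of 0.64. With all 14 the count was 10 (6 to 9 with 1 library left out) and the median 1.25, while in the ZnF1 mutant 5 were called lower and 2 higher, with a median of -0.02. Gpt2, an alanine aminotransferase, measured 1.3 and 3 RPKM in wild type, 2.1 and 3.4 RPKM in the ZnF1 mutant and 9.1 and 18.6 RPKM in the ZnF4 mutant. It differed by 2.21 ± 0.13 (SE, adjusted p = 0.00114) in the ZnF4 mutant and 0.28 ± 0.13 (SE, adjusted p = 0.147) in the ZnF1 mutant. Nupr1, a stress-induced chromatin protein, was called higher in both mutants, at 3.7 and 4 RPKM in wild type, 11.3 and 14.9 RPKM in the ZnF1 mutant and 17.2 and 19.7 RPKM in the ZnF4 mutant, with a ZnF1 difference of 1.53 ± 0.10 (SE, adjusted p = 0.00101) and a ZnF4 ratio of mean RPKM to wild type of 4.79 (adjusted p = 0.000757). Among the genes tested only through the ZnF4 libraries, Vldlr was at 2.6 and 2.3 RPKM and Slc7a3, a cationic amino acid carrier, at 3 and 3.7 RPKM there, against at most 0.6 and 0.4 RPKM elsewhere.

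Beside the following counts, 22.9% of all tested genes were called higher and 15.2% lower in ZnF1-/- cells, against 10.9% and 7.32% for ZnF4-/- cells. Between the mutants 22.3% of all tested genes were called higher in the ZnF4 mutant and 23.2% lower. Of 17 mitochondrial synthetases 3 were called lower in the ZnF1 mutant and 0 were called in the ZnF4 mutant, with medians of -0.18 and 0.09, and 5 were called higher between the mutants. Of 4 cofactors of the synthetases, 2 were called lower in the ZnF1 mutant (Aimp2 and Eef1e1, scaffold proteins of the multi-synthetase complex) and 0 in the ZnF4 mutant. Of 7 tested subunits of eIF2 and of its exchange factor eIF2B, 6 were called lower in the ZnF1 mutant, with a median of -0.30, and 0 in the ZnF4 mutant, with a median of -0.02. Eif2b4 was the widest of these, at -0.50 ± 0.08 (SE, adjusted p = 0.00712) in the ZnF1 mutant. The eIF2 kinases and phosphatases were mixed, with 3 of 9 called higher and 1 lower in the ZnF1 mutant and 1 higher in the ZnF4 mutant. That 1 was Eif2ak4, which encodes the uncharged tRNA sensor GCN2, at 11.8 and 11.5 RPKM in wild type, 13.8 and 12.1 RPKM in the ZnF1 mutant and 15 and 14.9 RPKM in the ZnF4 mutant and a difference of 0.33 ± 0.08 (SE, adjusted p = 0.0474). Ppp1r15a, the stress-induced eIF2 phosphatase subunit GADD34, was called higher in the ZnF1 mutant, by 0.40 ± 0.10 (SE, adjusted p = 0.0284). With 1 library left out, the ZnF1 calls dropped to as few as 0 in each of these 4 lists, and the Eif2ak4 call was lost in all 6 such fits.

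Genes of the unfolded protein response, the endoplasmic reticulum arm that also reaches eIF2, had counts at or below those shares: of 14 genes 1 was called higher in the ZnF1 mutant (Sel1l, 0.22 ± 0.07 (SE, adjusted p = 0.0497)) and 1 lower in the ZnF4 mutant (Edem1, -0.42 ± 0.10 (SE, adjusted p = 0.0438)), with medians of -0.12 and -0.10. Both calls were lost on removal of any 1 of the libraries compared. The TGATGNAA core was in 0 of the 13 windows of these genes. The 14 do not include Xbp1, counted below with the bZIP factors, or Herpud1, counted above with the other Atf4 targets. Among bZIP factors, which can pair with Atf4 or compete for its sites, 5 of 10 were called higher in the ZnF1 mutant and 1 lower, or 3 and 1 of 8 without Cebpa and Cebpb, which met the level filter only with the ZnF1 libraries. Atf3 measured 2.8 and 3.2 RPKM in wild type, 13 and 18 RPKM in the ZnF1 mutant and 4 and 2.7 RPKM in the ZnF4 mutant, with a ZnF1 difference of 2.03 ± 0.21 (SE, adjusted p = 0.00216). Cebpb measured 0.6 and 0.7 RPKM in wild type, 3.1 and 6.5 RPKM in the ZnF1 mutant and 0.2 and 0.3 RPKM in the ZnF4 mutant, so that it was tested only through the ZnF1 libraries, and its ZnF1 difference of 1.75 ± 0.22 (SE) is a description. Both factors are also abundant in macrophages, whose markers were high in the same libraries, and whether these go together was not tested. In the ZnF4 mutant 1 of the 10 was called higher, Jdp2 (0.57 ± 0.09 (SE, adjusted p = 0.012)), and 2 lower, Nfe2l2 (-0.45 ± 0.07 (SE, adjusted p = 0.0112)) and Xbp1 (-1.30 ± 0.14 (SE, adjusted p = 0.00465)). Each of these 3 was lost without any 1 of the 4 libraries compared.

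In the folate one-carbon cycle, 6 of 12 tested genes were called lower in the ZnF1 mutant and 2 higher, and 4 were called higher in the ZnF4 mutant. Amt and Aldh1l1, which reached 1 RPKM in the mutants alone, are in both of the higher counts. Mthfd1l, the mitochondrial step that follows Mthfd2, measured 33.1 and 39 RPKM in wild type, 22.7 and 26 RPKM in the ZnF1 mutant and 42.2 and 47.2 RPKM in the ZnF4 mutant, and its differences were -0.55 ± 0.06 (SE, adjusted p = 0.00311) and 0.31 ± 0.06 (SE, adjusted p = 0.0333). Tyms, thymidylate synthase, was called lower in the ZnF1 mutant, with a difference of -0.91 ± 0.14 (SE, adjusted p = 0.00715). The ZnF1 call of Mthfd1l was lost without the day 28 wild type sample (adjusted p = 0.063), its ZnF4 call on removal of any 1 library (up to 0.274), and the Tyms call without either wild type sample or the day 21 ZnF1 sample (up to 0.0986). With 1 library left out the 6 became 0 to 6 and the 4 became 0 to 3. Among amino acid transporters outside the members, 8 of 12 were called higher in the ZnF1 mutant and 3 lower, with a median of 0.73 (7 and 3 of 11 without Slc16a10, tested only through the ZnF1 libraries), and in the ZnF4 mutant 2 were called in each direction. Slc16a10 is also among the genes counted below with 1 library left out. Slc43a2 measured 14.5 and 14.5 RPKM in wild type, 38 and 31.9 RPKM in the ZnF1 mutant and 9.7 and 9.6 RPKM in the ZnF4 mutant and Slc7a8 measured 4.1 and 2.2 RPKM in wild type, 15 and 14.2 RPKM in the ZnF1 mutant and 1.8 and 2.1 RPKM in the ZnF4 mutant, and both were called higher in the ZnF1 mutant, by 1.21 ± 0.09 and 1.95 ± 0.20. Slc1a4, a carrier of neutral amino acids, kept the order of the members, at 3.7 and 7.3 RPKM in wild type, 2.2 and 4.1 RPKM in the ZnF1 mutant and 12.4 and 16.4 RPKM in the ZnF4 mutant, with differences of -0.63 ± 0.13 (SE, adjusted p = 0.017) and 1.29 ± 0.13 (SE, adjusted p = 0.00373). Without 1 library, 4 to 8 were called higher in the ZnF1 mutant, and Slc1a4 lost its ZnF1 call on removal of any 1 of the libraries compared (up to 0.209) and its ZnF4 call without the day 21 wild type sample (adjusted p = 0.0591).

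**Figure D4:**
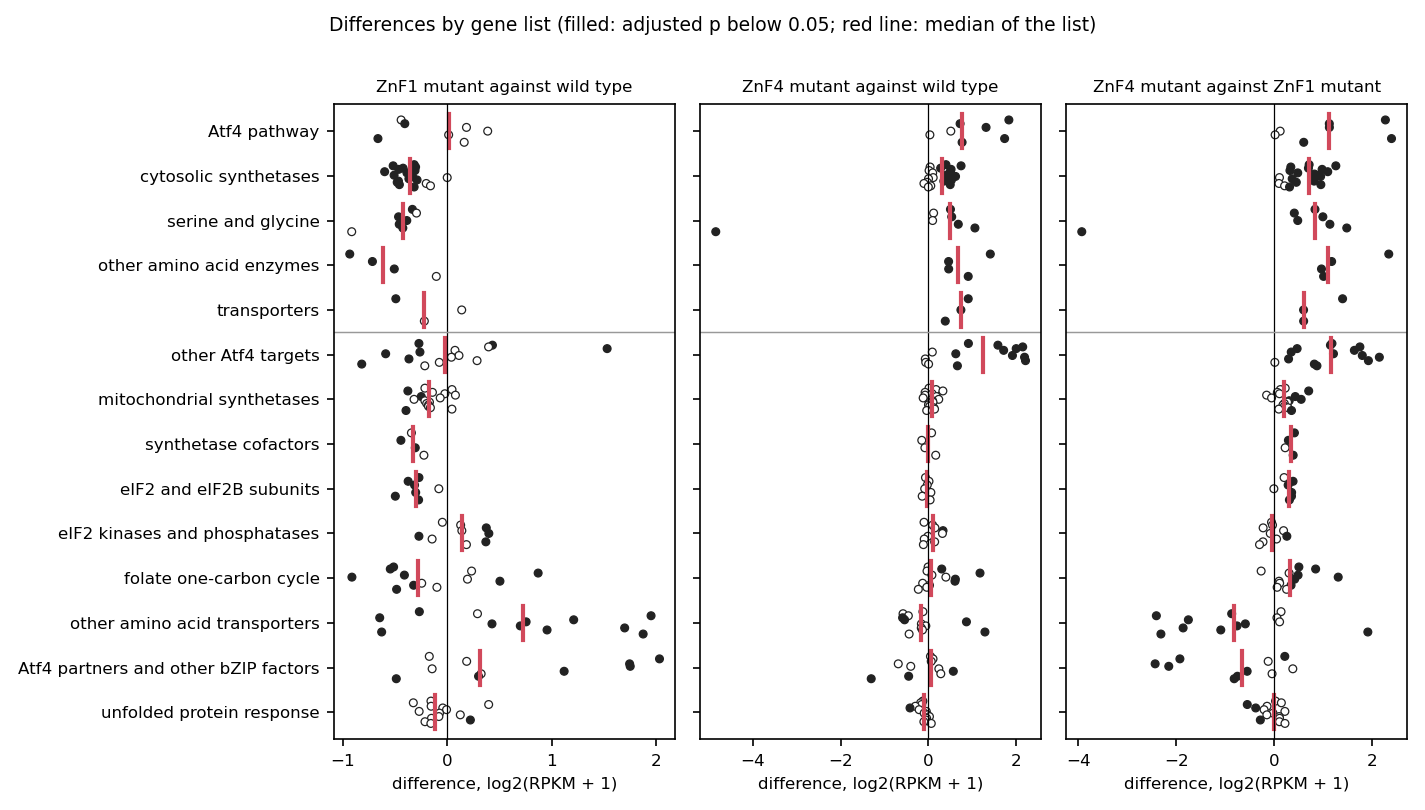
Differences on the log2(RPKM + 1) scale for the tested genes of each list, in the 3 comparisons of genotypes, with the 5 roles of the members above the grey line and 9 further lists below it. Points are genes, filled where the adjusted p was below 0.05, and red lines are list medians. The cytosolic synthetases lie left of 0 in the first panel (median -0.36) and right of it in the third (median 0.71), while the unfolded protein response centres near 0 in all 3 panels.

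Markers of other cells and of proliferation also differed between these libraries. All 11 tested macrophage markers were called higher in the ZnF1 mutant than in wild type, and 6 were called lower in the ZnF4 mutant. Their summed level over 12 markers was 518.3 and 328.7 RPKM in wild type, 2067.3 and 1940.5 RPKM in the ZnF1 mutant and 209.4 and 274.9 RPKM in the ZnF4 mutant. Among them C1qb measured 54.4 and 38.3 RPKM in wild type, 249.8 and 246.9 RPKM in the ZnF1 mutant and 19.3 and 20.8 RPKM in the ZnF4 mutant, and Cd163 stayed at or under 0.6 RPKM. Of 9 tested stromal markers, 4 met the level filter only with the ZnF1 libraries (Col3a1, Pdgfrb, Dcn, Vcam1), and the other 5 were all called higher in the ZnF1 mutant. The summed level of 10 stromal markers was, in the same order of genotypes, 38.8 and 25.4, 173 and 164.9, and 18.2 and 17.9 RPKM. Granulocyte and erythroid markers summed to at most 2.5 and 1.2 RPKM, and T cell markers to between 15.9 and 46.9 RPKM. Lck made up most of the T cell sum in every library, at 36.3 and 46.7 RPKM in wild type. Cd4 reached 1 RPKM only in the ZnF1 mutant, at 8.5 and 7.2 RPKM, and the other 4 T cell markers stayed below 1 RPKM in all libraries. Of the 10 B-lineage markers 1 was called higher in ZnF1-/- cells and 2 in ZnF4-/- cells, and 0 were called lower in either. Rag1 measured 11.6 and 9.2 RPKM in wild type, 54.7 and 23.9 RPKM in the ZnF1 mutant and 49.6 and 44.3 RPKM in the ZnF4 mutant. Igll1 measured 810.6 and 663 RPKM in wild type, 756.8 and 704.6 RPKM in the ZnF1 mutant and 1124.8 and 1005.9 RPKM in the ZnF4 mutant. All 16 proliferation genes were called lower in the ZnF1 mutant, with a median of -0.52, and 2 were called higher in the ZnF4 mutant, with a median of 0.22. Their summed level was 1826.7 and 1812.1 RPKM in wild type, 1244.9 and 1283.2 RPKM in the ZnF1 mutant and 2146 and 2033.5 RPKM in the ZnF4 mutant. Mki67, a marker of cycling cells, differed by -0.63 ± 0.08 (SE, adjusted p = 0.00319) in ZnF1-/- cells and 0.20 ± 0.08 (SE, adjusted p = 0.138) in ZnF4-/- cells. Both the macrophage markers and the proliferation genes in sum order the genotypes as the members do, the former in reverse, and their part in the results above was not tested. With 1 library left out, 9 to 11 macrophage markers and 7 to 9 of the 9 stromal markers were called higher in the ZnF1 mutant, 0 to 2 of each were called lower in the ZnF4 mutant, and 0 to 16 proliferation genes were called lower in the ZnF1 mutant, with 0 in the fit without the day 21 wild type sample. The stromal markers counted in those fits include the 4 tested only through the ZnF1 libraries, so their number called higher is partly set by the filter. In bulk RNA fewer cells of a type and less RNA per cell cannot be told apart.

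The scaling of the libraries bears on the size of the ZnF1 differences. Under quantile scaling the median difference of all tested genes between the ZnF1 mutant and wild type moved from -0.02 to -0.12, and that between the mutants from 0.03 to 0.12. Over all tested genes the split between higher and lower calls in the ZnF1 mutant went from 2606 and 1730 to 2047 and 2913, and that between the mutants from 2540 and 2637 to 3431 and 2359. The median of the members in the ZnF1 mutant moved from -0.39 to -0.32, with 25 called lower and 1 higher. Of all tested genes 25.6% were called lower and 18% higher there. Between the mutants the member median moved from 0.82 to 0.74, with 35 called higher and 1 lower, against 30.2% and 20.7% of all tested genes.

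Over time in culture, the members pointed upward without any call. limma called 0 of 41 members and 0 of 11379 genes between day 28 and day 21 (0% in each direction), and the smallest adjusted p was 0.154. At an unadjusted p below 0.05 stood 26 of the 41 members and 14.3% of all tested genes. The median difference was 0.27, against 0.03 over all tested genes. In all 3 genotypes 33 of the 41 members were higher on day 28 than on day 21, a pattern found in 22.7% of all tested genes. The exceptions were Dars, Qars, Rars, Wars, Farsa, Farsb, Slc1a5 and Gldc. Chac1 had the largest day difference, 1.01 ± 0.15 (SE, adjusted p = 0.173), followed by Asns (0.73 ± 0.14 (SE, adjusted p = 0.184)) and Atf5 (0.70 ± 0.06 (SE, adjusted p = 0.154)). Atf4 differed by 0.47 ± 0.07 (SE, adjusted p = 0.173). With 1 library per genotype and day, whether the mutants differ in this change could not be tested.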

How the data were processed

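Polyadenylated RNA from 6 samples was sequenced on the Illumina platform from fragmented double-stranded cDNA, per the labels' protocols, which name no strand-marking step. TopHat and bedtools with the mouse build mm9 were used, per the submitters' processing notes, with no versions and no rule for reads of pseudogene copies or overlapping genes. The authors deposited RPKM values rounded to 1 decimal for 26531 named RefSeq transcript rows, and 1 nameless row was dropped. The depth is unknown: at the best of the depths tried, 43.3% to 52.2% of values of rows under 160 bases lay within 0.05 of whole-read steps, so reads were not recovered. The row with the highest mean stood for each symbol.

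Values were taken as log2(RPKM + 1), which understates the change of low genes. limma 3.58.1 (R 4.3.3) fitted genotype and day with a mean-variance trend to 11379 genes at or above 1 RPKM in at least 2 libraries, with 2 residual degrees of freedom and a prior of 3.22, after it was tested on simulated data. Day is a term because the labels give each genotype the same days, and the day changes of genotypes correlated across genes at 0.433, 0.249 and 0.226. Every member called between genotypes was named, and up to 4 called genes with the smallest p from each of 16 other lists could be. Xbp1, Amt, Gcsh, Dld, Cd163 and genes listed only for how they met the level filter fall outside that rule and were named after their values were seen. The members and lists were chosen with earlier results of these data known. Alternatives were no day term, a pseudocount of 0.1, no filter, a mean of at least 4 RPKM, quantile and median-ratio scaling, summed rows, no trend, only the genotypes compared, and leaving out each library. Promoter windows came from RefSeq (GRCm38.p6), matched by accession or symbol. A few items are not reported here.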

Additional observations from a re-analysis of the deposited data

How the results depend on the processing

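Over the 15 alternative fits of each comparison, no called member changed direction. Without the replicate block of day, the members called lower in the ZnF1 mutant went from 28 to 9 and those called higher in the ZnF4 mutant from 27 to 6, while between the mutants 29 were called higher, against 35. Of all tested genes, 10.9%, 8.79% and 18.9% were called in the same directions in that fit. Without the filter on low values, those called higher in the ZnF4 mutant were 16 and those called lower in the ZnF1 mutant 22. The shares over all genes in that fit were 4.6% and 8.32%. Quantile scaling called 1 member (Slc3a2) higher in the ZnF1 mutant, against 0. Leaving out 1 library gave 1 to 27 lower and 0 to 1 higher members in the ZnF1 mutant, 3 to 20 higher members in the ZnF4 mutant and 26 to 34 higher members between the mutants. In both comparisons of the ZnF4 mutant the share of all tested genes called higher also fell in each fit without 1 library. Fits without 1 library have fewer samples, and the cause of the other shifts was not tested. The call of Gldc as the 1 lower member in the ZnF4 mutant and between the mutants, and the 0 calls between days, were the same in every fit that gave them. The depth of the libraries is unknown, so no counting error could be given for low genes such as Pycr1, Phgdh and Slc7a11.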
